A study of Mus musculus with 4 samples.

Results

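Transcripts of 10 Krüppel-like transcription factors, Klf2, Klf3, Klf4, Klf5, Klf6, Klf7, Klf9, Klf10, Klf11 and Klf13, were measured by bulk RNA-seq in murine 4T1 cells. The members were chosen by gene symbol from a table of 49585 genes. Levels are given as FPKM, in which the read pairs (fragments) assigned to a gene are divided by gene length and library size. All 10 reached an FPKM of 1 or more somewhere among the libraries, as 12669 genes did, and these are called expressed here.

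The 4T1 line comes from a mouse mammary tumor and is used as a model of triple-negative breast cancer (TNBC). The cells were 4T1-HM, with a high metastatic capacity, and 4T1-LM, with a low one, and each name stands for 1 clone grown from a single cell, so a difference between them is a difference between a pair of clones. Each clone was grown in the same RPMI-based medium for 48 h with 50 μmol/L of deferasirox (DFX), an iron chelator, dissolved in DMSO, or with DMSO alone. The 4 conditions, HM_Ctrl, HM_DFX, LM_Ctrl and LM_DFX, have 1 library each, so no difference below has a replicate check, no p-value is given, and the intervals cover counting error only.

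Krüppel-like factors bind GC-rich and CACCC sequences of promoters through C2H2 zinc fingers at their C-terminal end. They are grouped by the cofactors they recruit. Klf2, Klf4, Klf5, Klf6 and Klf7 mostly bind acetyltransferases and act as activators, Klf3 binds the CtBP corepressors, and Klf9, Klf10, Klf11 and Klf13 bind the Sin3a corepressor complex. In epithelia the family is known for setting the balance between proliferation and differentiation.

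The libraries held between 14363065 fragments (HM_DFX) and 21883855 fragments (LM_DFX). In all 4 libraries Krt8, Krt18, Krt7, Cdh1 and Epcam, which mark epithelium, were present, with FPKM from 13.5 for Epcam to 963 for Krt8, while Krt5 was listed at 0. Krt14, a basal keratin, was at 54.3 in LM_Ctrl and 10.4 in LM_DFX, and at 2.48 and 1.90 in the 4T1-HM libraries. Under DFX, 5 of the 6 expressed epithelial markers were at least 2-fold lower in 4T1-HM cells, beside 12.4% of all expressed genes, and 3 of 6 in 4T1-LM cells, beside 8.72%, and the part of this in the results below was not tested. Of the receptor genes that are low in TNBC, Pgr was at 0 and Esr1 reached at most 0.53, whereas the FPKM of Erbb2 was 12.5 and 11.8 in the untreated 4T1-HM and 4T1-LM cells. The leukocyte markers Cd3e and Adgre1 were at 0 and Ptprc reached at most 0.0139, and the 3 endothelial markers reached at most 0.123. The fibroblast markers Col1a1, Col1a2 and Dcn reached at most 0.998, and Pdgfra lay between 2.77 and 5.50. In bulk RNA, fewer cells that use a gene and less RNA per cell cannot be told apart.

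Promoter sequences are shown for the members whose 250 bases before the transcription start hold ACGTG, the core letters of the hypoxia response element. Klf13, which lacks these letters, is shown beside them and was picked for its nearly level expression. Klf2, Klf3 and Klf7 lack these letters too and are not shown. The sequences are taken from RefSeq (GRCm38.p6, the same coordinates as mm10) and run 5′ to 3′ on the strand of the gene, with the matched letters of either strand in capitals. Klf4 (chr4:55532476-55532725, minus strand), Klf6 (chr13:5861239-5861488, plus strand), Klf9 (chr19:23140976-23141225, plus strand), Klf11 (chr12:24651121-24651370, plus strand) and Klf13 (chr7:63938916-63939165, minus strand) read:
Klf4: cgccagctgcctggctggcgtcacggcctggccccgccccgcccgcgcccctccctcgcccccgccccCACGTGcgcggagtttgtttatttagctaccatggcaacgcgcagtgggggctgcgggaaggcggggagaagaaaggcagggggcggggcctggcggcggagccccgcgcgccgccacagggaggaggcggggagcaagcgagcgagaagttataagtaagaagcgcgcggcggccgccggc
Klf6: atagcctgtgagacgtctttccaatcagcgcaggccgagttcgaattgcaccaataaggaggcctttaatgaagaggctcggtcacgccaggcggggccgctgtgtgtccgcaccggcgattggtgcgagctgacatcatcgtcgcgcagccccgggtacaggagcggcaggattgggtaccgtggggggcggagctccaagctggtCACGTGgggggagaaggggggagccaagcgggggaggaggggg
Klf9: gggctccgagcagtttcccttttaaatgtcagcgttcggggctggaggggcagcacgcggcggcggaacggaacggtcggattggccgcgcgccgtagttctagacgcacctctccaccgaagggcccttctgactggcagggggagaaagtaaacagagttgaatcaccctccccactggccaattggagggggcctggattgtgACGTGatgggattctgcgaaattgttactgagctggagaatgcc
Klf11: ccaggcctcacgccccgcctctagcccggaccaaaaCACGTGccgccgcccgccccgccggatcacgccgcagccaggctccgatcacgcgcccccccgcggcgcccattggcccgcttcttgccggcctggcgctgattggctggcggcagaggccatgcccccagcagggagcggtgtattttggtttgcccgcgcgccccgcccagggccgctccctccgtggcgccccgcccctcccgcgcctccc
Klf13: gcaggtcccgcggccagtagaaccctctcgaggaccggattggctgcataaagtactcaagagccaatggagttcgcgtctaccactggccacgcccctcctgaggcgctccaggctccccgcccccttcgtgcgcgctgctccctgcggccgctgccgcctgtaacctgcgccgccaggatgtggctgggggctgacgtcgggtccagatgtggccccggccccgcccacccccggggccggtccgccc

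In Klf4, Klf6 and Klf11 the capitals form the palindrome CACGTG, which holds ACGTG on both strands and is also the canonical E-box, while Klf9 holds ACGTG on the strand of the gene only. The match began 44 bases before the start in Klf9, and on the strand of the gene 181 bases before it in Klf4, 42 in Klf6 and 213 in Klf11. RefSeq promoters were matched for 8 of the 10 members, all but Klf5 and Klf10, whose letters are therefore unknown here. Of these 8, 4 held ACGTG on either strand, against 16.6% of 32544 mouse promoter windows of the same length. CACGTG stood in 3 of 8, against 6.03% of all windows. The CACCC letters, to which the factors themselves bind, were found in 5 of 8 members (Klf2, Klf3, Klf7, Klf9 and Klf13) and in 52.1% of all windows. The GC box GGGCGG, which Sp and Klf proteins share, was found in 7 of 8, all but Klf9, and in 33.0% of all windows. TATAAA and the CArG box, the site of serum response factor, were found in 0 of 8, against 12.3% and 1.48% of all windows. The windows of Klf2 and Klf3 overlap the gene as the expression table gives it, and the RefSeq start of Klf7 lies inside that gene. A match describes letters in a window, and binding was not measured. Whether the letters go with the change under DFX was not tested.

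Among the members, Klf6 and Klf5 were the most abundant transcripts in all 4 libraries on the FPKM scale, which is per length and allows genes to be compared. Klf6 was the highest member in HM_Ctrl, HM_DFX and LM_Ctrl, and Klf5 was the highest in LM_DFX, with 86.7 against 83.5 for Klf6. Without replicates it cannot be said which neighbors in the order differ. The least abundant member was Klf11 in both untreated clones, Klf7 in HM_DFX and Klf3 in LM_DFX. The summed FPKM of the 10 members was 258 without and 535 with DFX in 4T1-HM cells, and 157 without and 321 with DFX in 4T1-LM cells, so it was higher under DFX in both clones and higher in 4T1-HM than in 4T1-LM cells in both media. The members' median FPKM went from 14.9 to 36.9 with DFX in 4T1-HM cells and from 7.68 to 16.6 in 4T1-LM cells. The median expressed gene moved far less, between 7.13 in HM_DFX and 8.08 in HM_Ctrl, and the members above it numbered 8 without and 9 with DFX in 4T1-HM cells, and 5 and 7 in 4T1-LM cells.

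**Figure D1:**
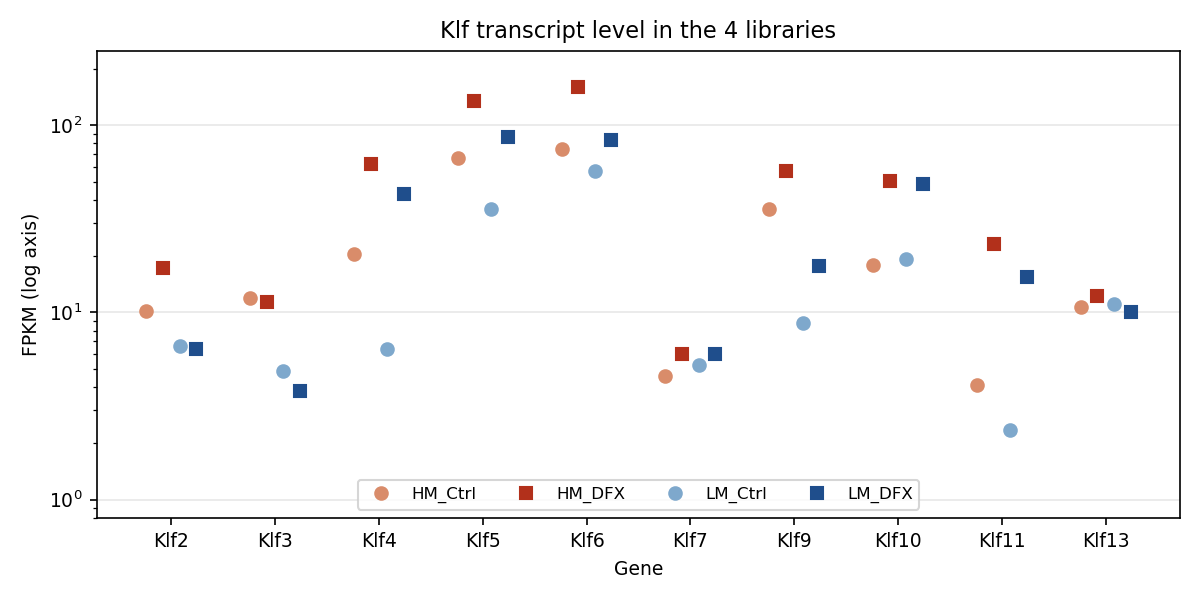
FPKM of each Klf gene (log axis) in the 4 conditions, 1 point per library, with circles for DMSO alone and squares for DFX. Klf11 moves from 4.10 to 23.2 in 4T1-HM cells and from 2.35 to 15.4 in 4T1-LM cells, while the 4 points of Klf13 lie between 10.02 and 12.2.

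Among the activators, Klf4 (ENSMUSG00000003032, chr4:55527143-55532466 of mm10, minus strand), a regulator of epithelial differentiation and one of the pluripotency factors, stood at an FPKM of 20.6 without and 62.1 with DFX in 4T1-HM cells, and at 6.36 without and 42.9 with DFX in 4T1-LM cells. Both DFX libraries were above both untreated libraries, and within each medium the 4T1-HM library was the higher one. Behind these values were 1053 and 2718 fragments in 4T1-HM cells without and with DFX, and 305 and 2863 in 4T1-LM cells. Under DFX, the FPKM of Klf4 was 3.01-fold higher in 4T1-HM cells (95% exact Clopper–Pearson counting interval, 2.80 to 3.23) and 6.75-fold higher in 4T1-LM cells (5.99 to 7.62). As a result the ratio of 4T1-HM to 4T1-LM cells was 3.24 without DFX (2.85 to 3.70) and 1.45 with it (1.37 to 1.52). Among the 10 genes, Klf4 had the largest range over the 4 libraries, 3.10 on the log2(FPKM + 1) scale. It stood above 44.5% of expressed genes in LM_Ctrl and above 89.0% in LM_DFX. These values are of RNA. By western blot after 48 h with iron chelators, with DFX at a lower dose than here, the paper looked at Klf4 protein. It reports the protein as strongly lowered in 4T1-HM cells relative to 4T1-LM cells. The higher Klf4 RNA under DFX therefore does not stand for higher protein.

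Klf5 (ENSMUSG00000005148, chr14:99298691-99313405, plus strand), which promotes proliferation in basal epithelial layers, went from an FPKM of 66.97 to 135 with DFX in 4T1-HM cells and from 35.8 to 86.7 in 4T1-LM cells. DFX libraries were again the higher ones in both clones. The fold under DFX was 2.02 in 4T1-HM cells (1.91 to 2.14) and 2.42 in 4T1-LM cells (2.26 to 2.61), while 4T1-HM exceeded 4T1-LM cells 1.87-fold without DFX (1.73 to 2.03) and 1.56-fold with it (1.49 to 1.64). Klf6 (ENSMUSG00000000078, chr13:5861489-5870393, plus strand), a widely expressed factor with tumor suppressor activity, went from 75.01 to 160 in 4T1-HM cells and from 56.8 to 83.5 in 4T1-LM cells. HM_DFX stood apart as the highest library. Its fold under DFX was 2.13 in 4T1-HM cells (2.06 to 2.21) and 1.47 in 4T1-LM cells (1.41 to 1.53).

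Klf2 (ENSMUSG00000055148, chr8:72319033-72321656, plus strand), best known for quiescence of endothelium and T cells, was at an FPKM of 10.2 in untreated and 17.2 in treated 4T1-HM cells, against 6.61 and 6.38 in 4T1-LM cells. The DFX library was the higher one in 4T1-HM cells, whereas the pair of 4T1-LM libraries lay close together. It rested on 315 and 456 fragments in 4T1-HM cells without and with DFX, and on 192 and 258 in 4T1-LM cells. The fold under DFX was 1.69 in 4T1-HM cells (1.46 to 1.95) and 0.966 in 4T1-LM cells, where the interval from 0.798 to 1.17 included 1. Klf7 (ENSMUSG00000025959, chr1:64029447-64122282, minus strand), a factor of neuronal development, was at an FPKM of 4.57 in untreated and 6.002 in treated 4T1-HM cells, against 5.23 and 5.985 in 4T1-LM cells. The DFX libraries were the higher ones by a small margin, 1.31-fold in 4T1-HM cells (1.18 to 1.47) and 1.14-fold in 4T1-LM cells (1.04 to 1.26). The values of Klf7 carry an uncertainty of strand. When both strands are searched, 38.7% of its 31-mers also occur in 2 other genes, which takes in the bases shared with Gm26649. Klf7 shares 3196 exon bases with this gene on the opposite strand, and the FPKM of Gm26649 was at most 0.0994.

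Klf3 (ENSMUSG00000029178, chr5:64803388-64832901, plus strand), the CtBP-binding repressor, was at an FPKM of 12.01 without and 11.4 with DFX in 4T1-HM cells, and at 4.86 and 3.78 in 4T1-LM cells. Both 4T1-HM libraries were above both 4T1-LM libraries, and within each clone the DFX library was the lower one. The ratio of 4T1-HM to 4T1-LM cells was 2.47 without DFX (2.28 to 2.68) and 3.01 with it (2.78 to 3.26). Under DFX the ratio was 0.949 in 4T1-HM cells, with an interval from 0.892 to 1.01, and 0.778 in 4T1-LM cells (0.709 to 0.855). Klf3 shares 404 exon bases with Gm20033 on the opposite strand, whose FPKM was 1.15 and 0.265 in the untreated 4T1-HM and 4T1-LM cells.

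Of the Sin3a-binding members, Klf9 (ENSMUSG00000033863, chr19:23141226-23166911, plus strand), a factor induced by glucocorticoid and thyroid hormone, had FPKM values of 35.7 and 57.1 in 4T1-HM cells without and with DFX, and of 8.75 and 17.8 in 4T1-LM cells. As for Klf3, both 4T1-HM libraries exceeded both 4T1-LM libraries, and here the DFX library was the higher one within each clone. The ratio of the clones was the largest among the 10 members, 4.08 without DFX (3.68 to 4.53) and 3.20 with it (3.00 to 3.43). In log2 fold change between the untreated clones Klf9 ranked 64 of 12669 expressed genes. Under DFX it was 1.60-fold higher in 4T1-HM cells (1.51 to 1.70) and 2.04-fold higher in 4T1-LM cells (1.83 to 2.27).

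Klf10 (ENSMUSG00000037465, chr15:38294413-38300707, minus strand) and Klf11 (ENSMUSG00000020653, chr12:24651371-24662774, plus strand) are known as early genes induced by TGFB. The FPKM of Klf10 went from 17.8 to 50.6 with DFX in 4T1-HM cells and from 19.2 to 48.7 in 4T1-LM cells. The clones lay close together in each medium, with a ratio of 0.928 without DFX (0.846 to 1.02) and 1.04 with it (0.983 to 1.096). Under DFX, Klf10 was 2.83-fold higher in 4T1-HM cells (2.62 to 3.06) and 2.53-fold higher in 4T1-LM cells (2.35 to 2.73). Klf11 went from 4.10 to 23.2 in 4T1-HM cells and from 2.35 to 15.4 in 4T1-LM cells, so both DFX libraries were far above both untreated ones. The fold under DFX was 5.67 in 4T1-HM cells (4.99 to 6.45) and 6.56 in 4T1-LM cells (5.55 to 7.79), from 290 to 1410 fragments and from 156 to 1423 fragments. In log2 fold change Klf11 ranked 77 of 12669 expressed genes in 4T1-HM cells and 120 in 4T1-LM cells. Its level passed that of 32.7% of expressed genes without and 79.0% with DFX in 4T1-HM cells, and of 22.4% and 68.6% in 4T1-LM cells.

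Klf13 (ENSMUSG00000052040, chr7:63886351-63938915, minus strand), a repressor also known from T cells, was at an FPKM of 10.7 without and 12.2 with DFX in 4T1-HM cells, and at 11.03 and 10.02 in 4T1-LM cells. It had the smallest range among the 10 members, 0.26 on the log2(FPKM + 1) scale, and Klf7 came next with 0.33. The ratio under DFX was 1.14 in 4T1-HM cells (1.06 to 1.23) and 0.909 in 4T1-LM cells (0.845 to 0.978).

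For the comparison of untreated clones, a member was called at a difference of at least 2-fold in FPKM + 1, and 3 of 10 members, Klf3, Klf4 and Klf9, were called higher in HM_Ctrl than in LM_Ctrl. Among all expressed genes, 3.65% were called higher and 3.15% lower. The log2 fold changes were 1.15 for Klf3, 1.56 for Klf4 and 1.91 for Klf9. No member was called lower, and the lowest log2 fold change was −0.16, for Klf7. The median of the members was 0.58, beside 0.01 for all expressed genes and 0.19 for 610 expressed genes with a transcription factor term in the annotation. Counting intervals of the FPKM ratio lay above 1 for 7 members, below 1 for Klf7, and included 1 for Klf10 and Klf13. Of the 10188 expressed genes with whole fragments at the annotated exon length, 33% had an interval above 1 and 29.2% below 1, and the shares for intervals in the comparisons that follow are over the same genes. Klf5, with a log2 fold change of 0.89, was the member nearest below the call, and Klf3 the nearest above it.

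In 4T1-HM cells, 5 of 10 members were called higher under DFX, beside 6.93% of all expressed genes, and 0 were called lower, beside 12.4%. They were Klf11 with a log2 fold change of 2.25, Klf4 with 1.54, Klf10 with 1.45, Klf6 with 1.08 and Klf5 with 1.00, the last of these just past the call. The members' median was 0.85, against −0.10 for all expressed genes and 0.04 for genes with a transcription factor term. Because all genes together lay slightly below 0, the members were also read relative to that median, which gave 2.35 for Klf11, 1.65 for Klf4, 1.56 for Klf10, 1.19 for Klf6, 1.11 for Klf5 and 0.03 for Klf3. Over all expressed genes, 878 were higher and 1568 lower, so 35.9% of calls were higher, and after median-ratio scaling of the libraries 1118 were higher and 1276 lower, or 46.7%. The same 5 members were called after that scaling. Counting intervals lay above 1 for 9 members, beside 32.1% of genes above 1 and 43.1% below, and included 1 for Klf3, the only member whose ratio was under 1, a direction that turned with median-ratio scaling (log2 fold change −0.07 and 0.06).

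In 4T1-LM cells, 4 of 10 members were called higher under DFX, beside 7.09% of all expressed genes, and 0 were called lower, beside 8.72%. The log2 fold changes were 2.58 for Klf4, 2.29 for Klf11, 1.30 for Klf10 and 1.25 for Klf5. Klf9 lay just below the call with 0.95, and passed it with 1.01 after median-ratio scaling. The median of the members was 0.75, beside −0.04 for all expressed genes and 0.10 for genes with a transcription factor term. Counting intervals lay above 1 for 7 members, beside 34.6% of genes, below 1 for Klf3 and Klf13, beside 40.1%, and included 1 for Klf2.

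**Figure D2:**
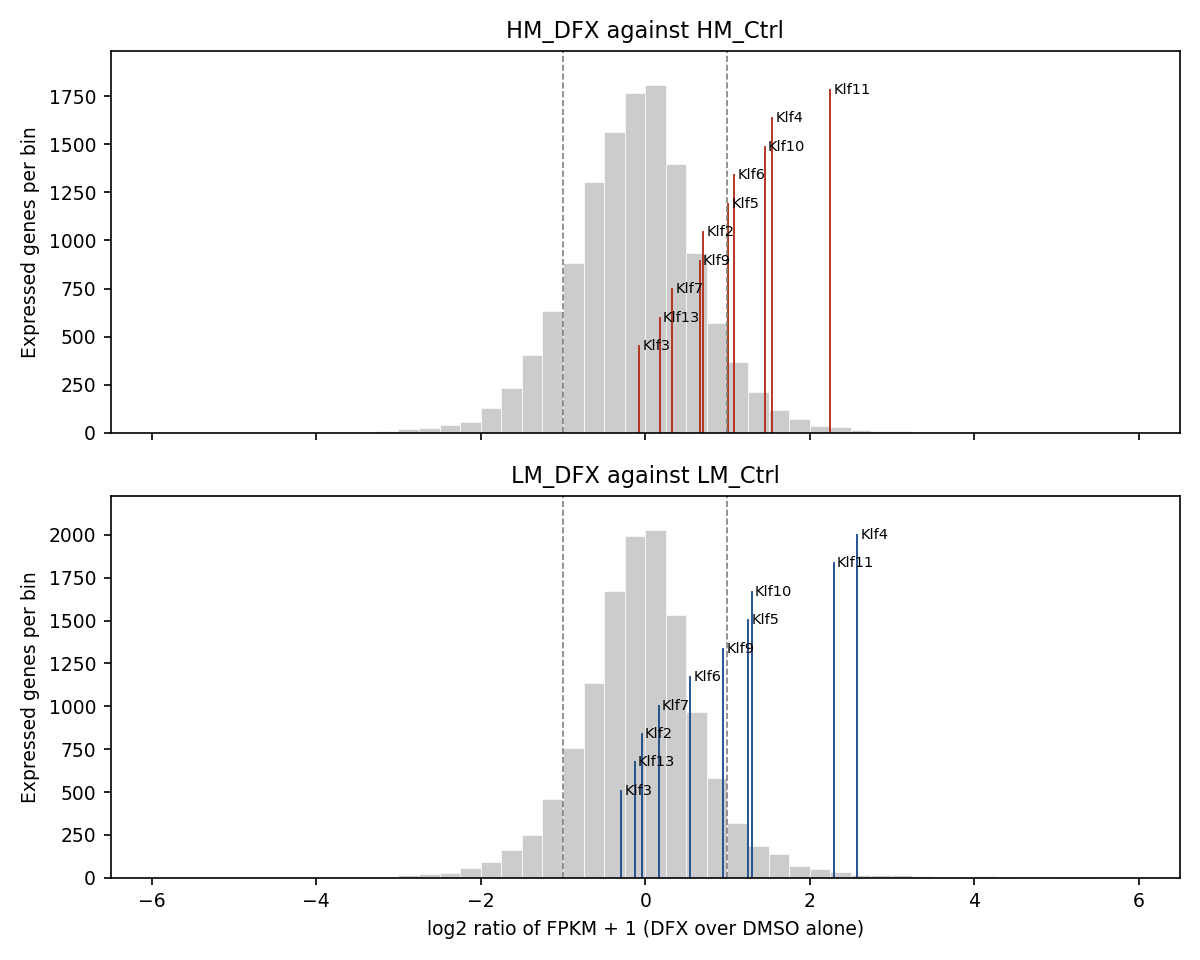
Number of expressed genes (gray bars) by log2 ratio of FPKM + 1 under DFX, for 4T1-HM cells above and 4T1-LM cells below, with a colored line at each Klf gene (the line heights carry no value) and dashed lines at a 2-fold change. In the upper panel 5 Klf lines lie past the right dashed line, in the lower panel 4, and none lies past the left one.

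Klf4, Klf5, Klf10 and Klf11 were thus called higher under DFX in both clones, each clone against its own DMSO library. The responses of the clones were then set against each other as the log2 fold change in 4T1-HM minus that in 4T1-LM cells. Klf4 was the 1 member called in this difference, at −1.03, beside 5.38% of all expressed genes called lower, and 0 members were called higher, beside 3.52%. The call for Klf4 ended after median-ratio scaling, at −0.96. The other members lay between −0.29 for Klf9 and 0.74 for Klf2, and the median of the 10 was 0.16, against −0.08 for all expressed genes. Counting intervals of the DFX ratio in the 2 clones overlapped for 3 members, Klf7, Klf10 and Klf11, and lay apart for the other 7, beside 45.2% of genes. These intervals hold no variation between cultures, so whether the responses differ was not tested.

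**Figure D3:**
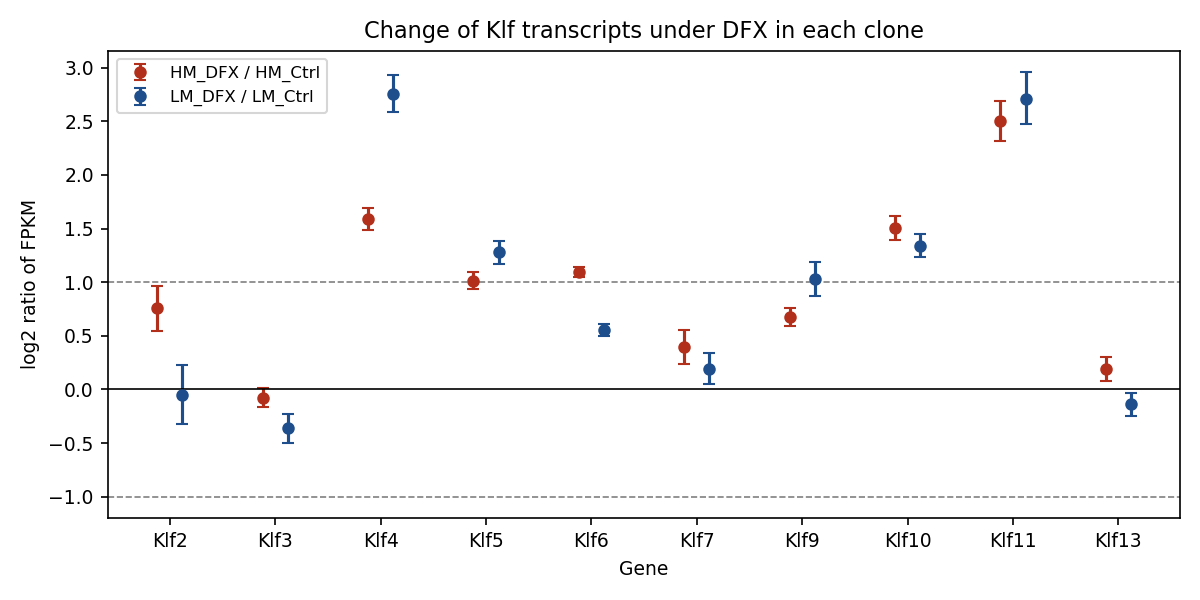
log2 ratio of FPKM under DFX over DMSO alone for each Klf gene, in 4T1-HM cells (red) and 4T1-LM cells (blue), where bars are 95% exact counting intervals, 1 library per condition, and dashed lines mark a 2-fold change. Klf4 lies higher in 4T1-LM cells (a ratio of 6.75 against 3.01) and Klf6 higher in 4T1-HM cells (2.13 against 1.47), and the bars of Klf11 overlap.

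In the comparison of the clones under DFX, 3 of 10 members were called higher in HM_DFX than in LM_DFX, beside 3.31% of all expressed genes, and 0 were called lower, beside 5.05%. They were Klf9 with a log2 fold change of 1.63, Klf3 with 1.37 and Klf2 with 1.30. Klf3 and Klf9 were called without DFX too, whereas Klf4 was not called here (0.52) and Klf2 not there (0.56). The median of the members was 0.60, beside −0.05 for all expressed genes and 0.07 for genes with a transcription factor term. Klf7 and Klf10 had intervals that included 1, and those of the other 8 lay above 1, beside 29.9% of genes above 1 and 38.3% below. The comparisons share libraries with each other, so their values for a gene are not independent.

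**Figure D4:**
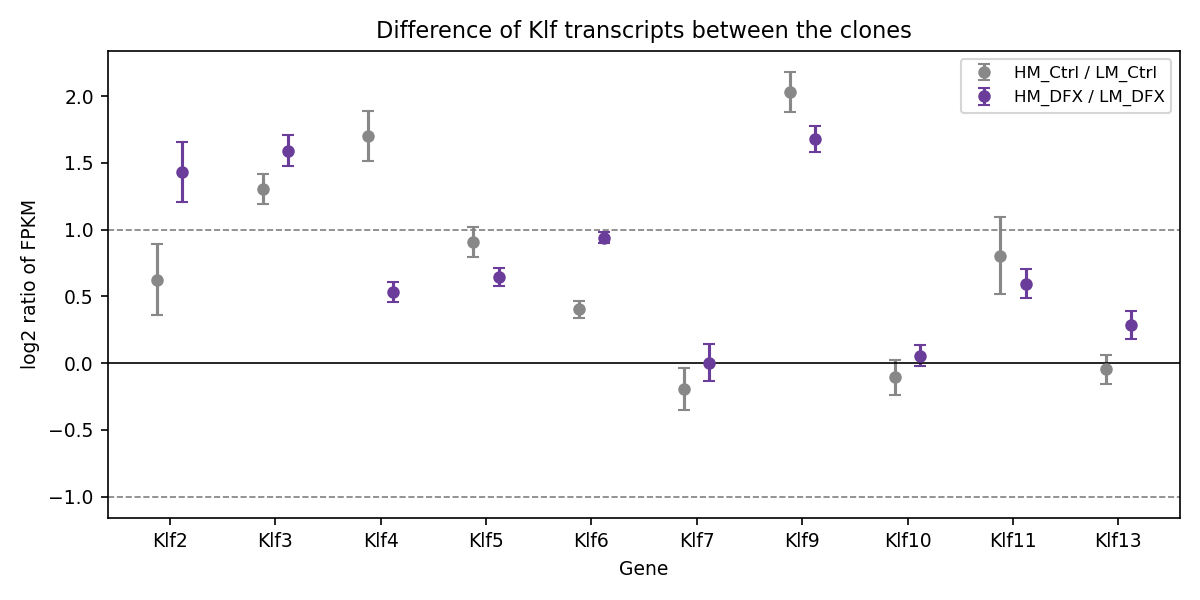
log2 ratio of FPKM in 4T1-HM over 4T1-LM cells for each Klf gene, with DMSO alone (gray) and with DFX (purple), where bars are 95% exact counting intervals and dashed lines mark a 2-fold difference. Klf3 and Klf9 lie above the upper dashed line in both media, and Klf4 drops from a ratio of 3.24 to 1.45.

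The members were compared with each other by the distance of their centered log2(FPKM + 1) values over the 4 libraries, a description of shape and not of level. The closest pair was Klf7 and Klf13, at 0.30, both nearly level. Klf5 and Klf6 followed at 0.51, Klf2 and Klf6 at 0.56, Klf2 and Klf3 at 0.66, and Klf4 and Klf11, the pair with the largest ranges, at 0.70. By the same measure over the 6678 genes that reached an FPKM of 10 in any library, the genes most like Klf4 were Sqstm1, Kdm3a and Flrt3. Sqstm1, which encodes an autophagy receptor, was at a distance of 0.27, with FPKM values of 428 and 1376 in 4T1-HM cells without and with DFX, and of 136 and 744 in 4T1-LM cells. Kdm3a, a histone demethylase, was at 0.32 with 15.1, 52.0, 6.41 and 34.6 in the same order. Flrt3, a transmembrane adhesion protein, was at 0.38. The distances rest on 4 libraries and a search over all of these genes.

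Most other Klf and Sp genes were barely expressed. Of 16 other Klf and Sp genes in the table, 6 were expressed. Klf14, Klf15, Klf17, Sp5 and Sp8 were listed at 0 in all 4 libraries, and Klf1, Klf8, Klf12, Sp7 and Sp9 stayed under an FPKM of 1. Klf16, a Sin3a-binding relative, went from an FPKM of 9.67 to 15.6 with DFX in 4T1-HM cells and from 16.6 to 11.3 in 4T1-LM cells. It was thus higher with DFX in one clone and lower in the other, with a difference of responses of 1.16 on the log2 scale, which was not tested. Sp1, the ubiquitous GC box factor, had 15.8, 27.9, 16.8 and 24.4 in the same order. Sp2 was the 1 gene of the list called higher under DFX in 4T1-HM cells (log2 fold change 1.06, from 10.6 to 23.2), 1 of 6 beside 6.93% of all expressed genes, and 0 were called in 4T1-LM cells.

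Among 15 cofactors through which Klf proteins act, 0 were called between the untreated clones, 1 was called lower under DFX in 4T1-HM cells, and 1 was called higher and 1 lower in 4T1-LM cells. These are 6.67% of the list each, near or below the shares of all expressed genes in 4T1-LM cells (7.09% higher and 8.72% lower) and below the 12.4% called lower in 4T1-HM cells. The lower one was Hdac1 in both clones, a histone deacetylase of corepressor complexes, which went from an FPKM of 26.9 to 12.6 in 4T1-HM cells and from 28.2 to 13.1 in 4T1-LM cells. The higher one was Sap30, a subunit of the Sin3 complex, with a log2 fold change of 1.65 in 4T1-LM cells and 0.74 in 4T1-HM cells. Of 17 expressed regulators of Klf transcription, 3 were called higher and 1 lower under DFX in 4T1-HM cells, and 2 higher and 1 lower in 4T1-LM cells. The higher ones are 17.6% and 11.8% of the list, beside 6.93% and 7.09% of all expressed genes, and the lower ones 5.88% in each clone, beside 12.4% and 8.72%. Foxo3, a forkhead factor restrained by AKT, went from 8.03 to 29.8 FPKM in 4T1-HM cells and from 3.99 to 19.1 in 4T1-LM cells. It was highest in HM_DFX and lowest in LM_Ctrl, as were Klf4, Klf5, Klf6, Klf9 and Klf11, but also Trp53, Smurf1 and other listed genes. The share of all genes with these extremes was not counted, and a link of Foxo3 to the Klf genes was not tested. Trp53 was higher under DFX in both clones, with log2 fold changes of 1.08 and 1.02, and Mef2a, named after its values were seen, completed the count in 4T1-HM cells with 1.01. Hif1a, whose transcript encodes the oxygen-regulated subunit of HIF, had log2 fold changes of −1.15 in 4T1-HM and −0.81 in 4T1-LM cells. Egr1, an early response gene, went from 8.55 to 10.2 FPKM in 4T1-HM cells and from 14.6 to 4.22 in 4T1-LM cells.

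Of 12 regulators of the stability of Klf proteins, 1 was called higher and 1 lower in 4T1-HM cells under DFX, and 2 were called higher and 0 lower in 4T1-LM cells. In 4T1-HM cells this is 8.33% of the list each way, beside 6.93% and 12.4% of all expressed genes, and in 4T1-LM cells 16.7% were higher, beside 7.09%. Smurf1, a ubiquitin ligase, had log2 fold changes of 1.03 in 4T1-HM and 1.54 in 4T1-LM cells, and Wwp1, a ligase known to act on Klf5, had −1.22 and −0.91. Vhl had 0.38 and 1.22. Protein levels are not part of the data analysed here. Of 15 expressed genes known as targets of Klf factors, 1 was called higher (Krt19) and 2 lower (Edn1 and Fgfbp1) in HM_Ctrl against LM_Ctrl, which is 6.67% and 13.3% of the list, beside 3.65% and 3.15% of all expressed genes. Under DFX, 1 was called higher (Cdkn1a) and 5 lower (Ccnd1, Ccnb1, Cdh1, Fgfbp1 and Tgfb1) in 4T1-HM cells, and 3 higher (Cdkn1a, Lgals3 and Krt19) and 4 lower (Ccnd1, Ccnb1, Fgfbp1 and Edn1) in 4T1-LM cells. Of the list, 6.67% were thus higher and 33.3% lower in 4T1-HM cells, beside 6.93% and 12.4% of all expressed genes, and 20% higher and 26.7% lower in 4T1-LM cells, beside 7.09% and 8.72%. Krt19, Edn1, Cdh1, Tgfb1 and Lgals3 were named after their values were seen. Cdkn1a, a cell cycle inhibitor that Klf4 is known to induce, went from 14.1 to 84.5 FPKM in 4T1-HM cells and from 8.09 to 61.3 in 4T1-LM cells. Its order of libraries was that of Klf4, but also that of Lgals3, Foxo3, Trp53, Smurf1 and other listed genes. The share of all genes with this order was not counted. Ccnd1, a cyclin that Klf5 is known to induce and Klf4 to repress, had log2 fold changes of −2.66 in 4T1-HM and −2.04 in 4T1-LM cells, and Ccnb1, a mitotic cyclin, had −1.79 and −1.95. Fgfbp1 differed most between the untreated clones, at 4.80 FPKM in 4T1-HM and 55.2 in 4T1-LM cells. Whether any of these genes followed a Klf factor was not tested.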

How the data were processed

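RNA was measured in 4 libraries, 1 per condition, grouped by their labels (HM_DFX and LM_DFX stand for HM_DFX50 and LM_DFX50). The labels do not say how many cultures went into a library. Poly(A) RNA was made into directional libraries and sequenced as 150-bp read pairs. Per the submitters' processing notes, FastQC, Trimmomatic, HISAT2 and featureCounts were used with mm10. Versions and the use of strand in counting are not given in the sources used here. Without strand, reads of a gene and of one antisense to it cannot be told apart. The authors deposited FPKM for 49585 genes, with 1 column per library, and 0 columns of values were left unused. Their calls with edgeR were not repeated, since 1 library per condition gives no spread.

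Here, FPKM were compared as log2(FPKM + 1), a scale that understates the change of low genes, for the genes that reached an FPKM of 1 in any library, and called at 2-fold. Ratios with intervals are of plain FPKM. Fragments were recovered with GENCODE M21 exon lengths, which gave whole fragments within 0.02 for 96.8% of 18236 genes. For Klf5, Klf6, Klf9, Klf10 and Klf11 the smallest length that gave whole fragments was used, so their fragments are the fewest that the FPKM allow and their intervals are at their widest. Depth was 16745608 and 14363065 fragments for 4T1-HM cells without and with DFX, and 15731521 and 21883855 for 4T1-LM cells. Intervals are exact (Clopper–Pearson, 95%) and cover counting error only. The calling was run on simulated data with planted changes and counting error only, which cannot show how calls fare against variation between cultures.

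The 10 members, the gene lists and the comparisons were chosen with earlier results of these data known. All members were named, and from each list up to 4 genes with the largest change past 2-fold and an FPKM of at least 5. The 3 genes nearest to the member with the largest range were also named, and Klf and Sp genes were named freely. Alternatives were a pseudocount of 0.1, no filter on low values, a mean FPKM over the libraries of 1 or more, median-ratio and 75th percentile scaling, thresholds of 1.5-fold and 4-fold, and protein-coding genes only. Motifs were searched on both strands of RefSeq promoters (GRCm38.p6). Python 3.11.15 was used with NumPy 2.4.6, pandas 2.3.3, SciPy 1.17.1 and matplotlib 3.10.9.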

Additional observations from a re-analysis of the deposited data

Results flagged for a closer look

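Klf13 moved in opposite directions under DFX in the clones. Its FPKM ratio was 1.14 in 4T1-HM cells (counting interval 1.06 to 1.23) and 0.909 in 4T1-LM cells (0.845 to 0.978). The difference of the log2 fold changes, 4T1-HM minus 4T1-LM, was 0.30, which ranked 2739 of 12669 expressed genes from the highest. Klf2 also had opposite signs, with a larger difference of 0.74, but its counting interval in 4T1-LM cells included 1. With 1 library per condition the difference of Klf13 was not tested, and both of its changes are well under 2-fold. The direction in 4T1-LM cells also leans on the scaling. Median-ratio scaling took the log2 fold change of Klf13 from −0.13 to −0.06 in 4T1-LM cells and from 0.18 to 0.30 in 4T1-HM cells. The counting intervals above are for FPKM without that scaling.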

How the results depend on the processing

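With 1 library per condition, no replicate could be left out. No paired analysis was possible because no result comes from a test. Of the 50 log2 fold changes of members, 46 moved by less than their counting error (from the width of the interval, or for a difference of responses from the widths of both) with a pseudocount of 0.1, 42 with median-ratio scaling and 50 with 75th percentile scaling. No called value changed sign. Median-ratio scaling turned the sign of 3 uncalled values: Klf3 under DFX in 4T1-HM cells, Klf2 under DFX in 4T1-LM cells (−0.04 to 0.02), and the difference of responses of Klf11 (−0.04 to 0.02). Klf9 was also called under DFX in 4T1-LM cells with a pseudocount of 0.1 (1.02) and with median-ratio scaling. Median-ratio scaling left 0 members called in the difference of responses instead of 1.

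With a 1.5-fold threshold, 5 members instead of 3 were called higher in HM_Ctrl than in LM_Ctrl, beside 1329 of 12669 expressed genes. Between the clones under DFX, 5 instead of 3 were called higher in HM_DFX, beside 1260 genes. In the difference of responses 1 was called higher and 1 lower, instead of 0 and 1, beside 1238 and 2078 genes. With a 4-fold threshold, 0 members were called in these comparisons. Under DFX, 1 was then called higher in 4T1-HM cells, beside 111 genes, and 2 in 4T1-LM cells, beside 180. Over all expressed genes, 861 were called between the untreated clones, 2446 and 2003 under DFX in 4T1-HM and 4T1-LM cells, 1059 between the clones under DFX and 1128 in the difference of responses. In that order the counts were 2431, 5328, 4616, 3108 and 3316 at 1.5-fold, and 97, 277, 314, 95 and 109 at 4-fold. With a pseudocount of 0.1 they were 1557, 3631, 3070, 1993 and 2069. With protein-coding genes only, 720 genes were called in the difference of responses. Counting intervals were widest for Klf2 and Klf11, which had 192 and 156 fragments in LM_Ctrl.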
